A study of Mus musculus with 10 samples.

Results

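The genes described here are 10 genes of neutrophils and of the neutrophil-like suppressor cells of tumors: S100a8, S100a9, Csf3r, Cxcr2, Retnlg, Il1b, Lcn2, Trem1, Ngp and Mmp8. They were chosen by their GENCODE mouse symbols, and all 10 were found among the 55401 genes of the count table. RNA was measured in 10 s.c. KPN1.1 tumors of obese mice, with 5 tumors of mice given liraglutide (0.2 μg per g of body weight a day) and 5 of mice given vehicle (PBS). The mice were male C57BL/6J on a high-fat diet, 7 to 17 weeks old when 75000 cells were injected into the flank. Part of every tumor was frozen when the mice were killed between days 19 and 22. KPN1.1 is a mouse lung adenocarcinoma line, so each library holds RNA of tumor cells of a single line together with whatever host cells the fragment contained. Liraglutide is an agonist of the receptor for glucagon-like peptide 1.

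Neutrophils are made in the bone marrow under granulocyte colony-stimulating factor and leave it for tissue along gradients of chemokines that their receptor CXCR2 reads. Granule proteins such as Ngp, Lcn2 and Mmp8 are made early, in marrow precursors. RNA of S100a8, S100a9, Il1b, Csf3r and Cxcr2 is found in mature cells, whether or not precursors hold it too. In tumors, cells of the same lineage can restrain T cells and are then called polymorphonuclear myeloid-derived suppressor cells, a state defined by function that RNA of a whole fragment cannot identify.

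The 10 genes were scarce. Their summed counts came to between 187 and 346 per tumor, where total counts lay between 9927942 and 14480593. The unit CPM is counts scaled to a common library size by the TMM method, and 3 counts correspond to 0.207 to 0.315 CPM. Cxcr2, Retnlg, Trem1 and Ngp were too low for the filter on low counts, so that S100a8, S100a9, Csf3r, Il1b, Lcn2 and Mmp8 were tested among 17464 genes. Defining markers of the lineage were checked as well. Ly6g, the surface protein by which mouse neutrophils are sorted, and Cxcr1 had 0 counts in all 10 tumors, which allows a level of up to the 3 counts just given. Camp and Elane, granule genes of precursors, had at most 8 and 2 counts in a tumor. The genes are therefore called here by their names, and no level of theirs is read as a number of neutrophils. In RNA of whole fragments, fewer cells of a type and less RNA per cell cannot be told apart.

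The start regions of these genes are the stretches where myeloid transcription factors such as C/EBP and PU.1 are known to act. The 250 bases before the start are shown for S100a8 and S100a9, which varied most between tumors, for Il1b, the most abundant of the genes, and for Csf3r, the steadiest. They are RefSeq sequences of build GRCm38.p6, written 5′ to 3′ on the gene's strand, at chr3:90668821-90669070 (plus strand) for S100a8, chr3:90695722-90695971 (minus strand) for S100a9, chr2:129371140-129371389 (minus strand) for Il1b and chr4:126024409-126024658 (plus strand) for Csf3r. Capitals mark matches on either strand to a C/EBP core, spelled TTNNGNAA.
S100a8: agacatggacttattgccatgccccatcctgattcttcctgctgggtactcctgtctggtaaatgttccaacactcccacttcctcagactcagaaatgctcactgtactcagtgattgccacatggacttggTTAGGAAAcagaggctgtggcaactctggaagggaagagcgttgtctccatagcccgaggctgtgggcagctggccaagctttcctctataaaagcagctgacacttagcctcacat
S100a9: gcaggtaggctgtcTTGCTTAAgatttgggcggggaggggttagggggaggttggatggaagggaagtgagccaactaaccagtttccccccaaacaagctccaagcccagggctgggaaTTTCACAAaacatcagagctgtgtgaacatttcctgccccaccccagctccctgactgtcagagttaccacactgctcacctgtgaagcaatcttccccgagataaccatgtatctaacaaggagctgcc
Il1b: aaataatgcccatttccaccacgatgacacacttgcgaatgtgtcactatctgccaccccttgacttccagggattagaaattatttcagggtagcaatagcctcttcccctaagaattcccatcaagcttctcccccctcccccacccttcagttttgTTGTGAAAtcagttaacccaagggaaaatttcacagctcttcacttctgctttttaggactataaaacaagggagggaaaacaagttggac
Csf3r: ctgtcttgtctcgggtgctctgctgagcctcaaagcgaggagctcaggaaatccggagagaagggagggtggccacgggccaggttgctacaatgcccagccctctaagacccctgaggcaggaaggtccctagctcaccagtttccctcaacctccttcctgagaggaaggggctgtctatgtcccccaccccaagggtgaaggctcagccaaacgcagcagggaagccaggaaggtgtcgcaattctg
The S100a8 stretch held 1 match, 117 to 110 bases before the start, and the letters TATAAA 30 to 25 bases before it. The S100a9 stretch held 2 matches, at 236 to 229 and 130 to 123 bases, and no TATAAA. In Il1b a match lay 91 to 84 bases before the start and TATAAA 31 to 26 bases before it, and Csf3r held no match. Of the 10 genes, 8 held the C/EBP core, against 36.8% of 32851 RefSeq promoters, and 6 held the letters GAGGAA of the PU.1 core on either strand, against 23.3%. A match describes these letters alone.

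In edgeR's quasi-likelihood test 0 of these 6 had an adjusted p under 0.05 with a log2 fold change over 0.58 in size, where the share over all 17464 genes was 0% as well. DESeq2 called 17 of the 3796 genes that its independent filtering left with an adjusted p (0.448%), but it left none of the 10 with one. Without that filtering it called 9 of 35103 genes (0.0256%) and 0 of the 10, and limma-voom called 0 genes. At an unadjusted p under 0.05, 1 of the 6 passed (Mmp8, higher with liraglutide), beside 9.59% of all genes in either direction with 3.97% higher and 5.62% lower under liraglutide. In exact permutation tests 0 of the 6 had a p under 0.05, beside 8.5% of all genes. The log2 fold change was above 0 for 4 of the 6, beside 47.4% of all genes, with a median of 0.14 for the 6 and -0.02 for all genes. For none of the 10 genes did the vehicle and liraglutide tumors fail to overlap, against 1.49% of the tested genes (0.607% with liraglutide higher and 0.888% with it lower). The plot of the levels by tumor shows all 10 genes, with a wide spread within both groups for S100a8 and S100a9 and a narrow one for Csf3r.

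**Figure D1:**
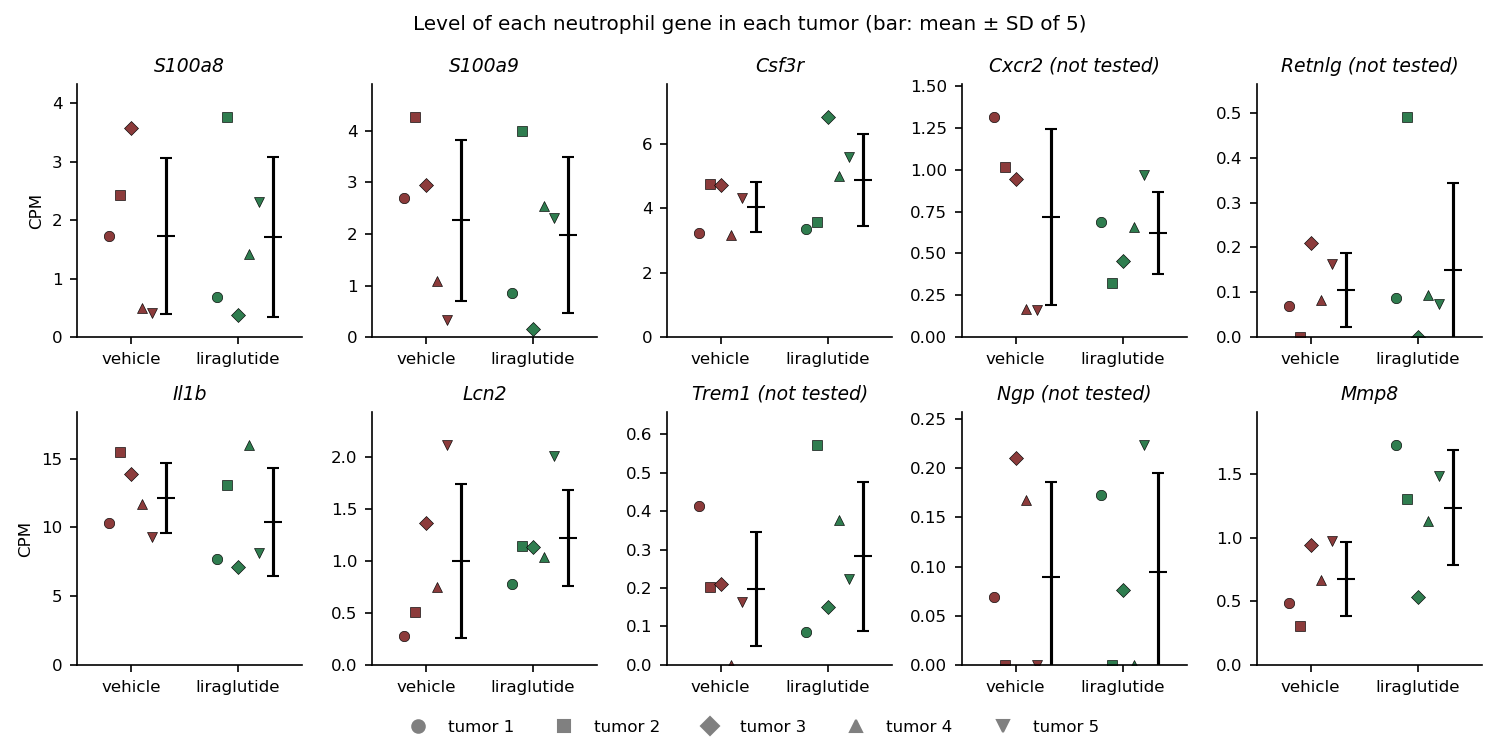
Level of each of the 10 genes in CPM (vertical axes start at 0) for the 5 vehicle and 5 liraglutide tumors, with a marker shape for each tumor number and a bar for the mean ± SD of 5 tumors. The groups overlap in every panel, and 4 of the 5 liraglutide tumors lie above all vehicle tumors for Mmp8.

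S100a8 and S100a9 encode the subunits of calprotectin, the calcium- and zinc-binding protein that neutrophils hold in large amounts and that signals through TLR4 and the receptor Ager. In vehicle tumors 1 to 5 the level of S100a8 was 1.73, 2.43, 3.57, 0.502 and 0.407 CPM, and in liraglutide tumors 1 to 5 it was 0.691, 3.75, 0.379, 1.42 and 2.31 CPM. Both groups held low and high tumors, with a 9.905-fold range from the lowest to the highest. The means were 1.73 ± 1.34 CPM in the vehicle group and 1.71 ± 1.36 CPM in the liraglutide group (SD, n = 5 each). Between groups the log2 fold change was 0.01 (SE 0.67, 95% CI -1.45 to 1.48) with an adjusted p of 0.996 in edgeR's quasi-likelihood test. The interval is wide enough to hold a change of more than 1 on the log2 scale in either direction.

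S100a9 stood at 2.69, 4.26, 2.94, 1.09 and 0.326 CPM in vehicle tumors 1 to 5 and at 0.864, 4.00, 0.152, 2.55 and 2.31 CPM in liraglutide tumors 1 to 5. Vehicle 5 and liraglutide 3 were the lowest, as they were for S100a8, and the range was 28.1-fold, although the lowest value rests on 2 counts. With liraglutide the log2 fold change was -0.18 (SE 0.71, 95% CI -1.75 to 1.38), with an adjusted p of 0.944 in edgeR's quasi-likelihood test. The SD of log2 CPM within groups put S100a9 at percentile 98.7 and S100a8 at percentile 97.5 of all tested genes. Leaving out single tumors moved the log2 fold change of S100a8 between -0.49 and 0.45 and that of S100a9 between -0.61 and 0.17, so the sign of either depended on the tumors included.

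The levels of S100a8 and S100a9 moved together across tumors. Over the 10 tumors Pearson's r of log2 CPM was 0.91 (permutation test, p = 0.00017, adjusted p = 0.00255 over 15 pairs of the tested genes) and Spearman's rho was 0.92 (permutation test, p = 0.00056, adjusted p = 0.0084). With group means subtracted r was 0.92 (permutation p = 0.00013). Without liraglutide 3 and vehicle 5, the tumors farthest from the median of S100a8, r was 0.89 (permutation test, p = 0.00595), but its adjusted p was 0.0893. The points leave a gap, with 4 tumors below it and 6 above. Among the 6 above, r was 0.53 and rho 0.66 (exact permutation tests, p = 0.264 and 0.175), and the 4 below were too few for a test. No other pair had an adjusted p under 0.05. The next, S100a9 with Il1b, had an r of 0.73 (permutation test, p = 0.0182, adjusted p = 0.137).

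**Figure D2:**
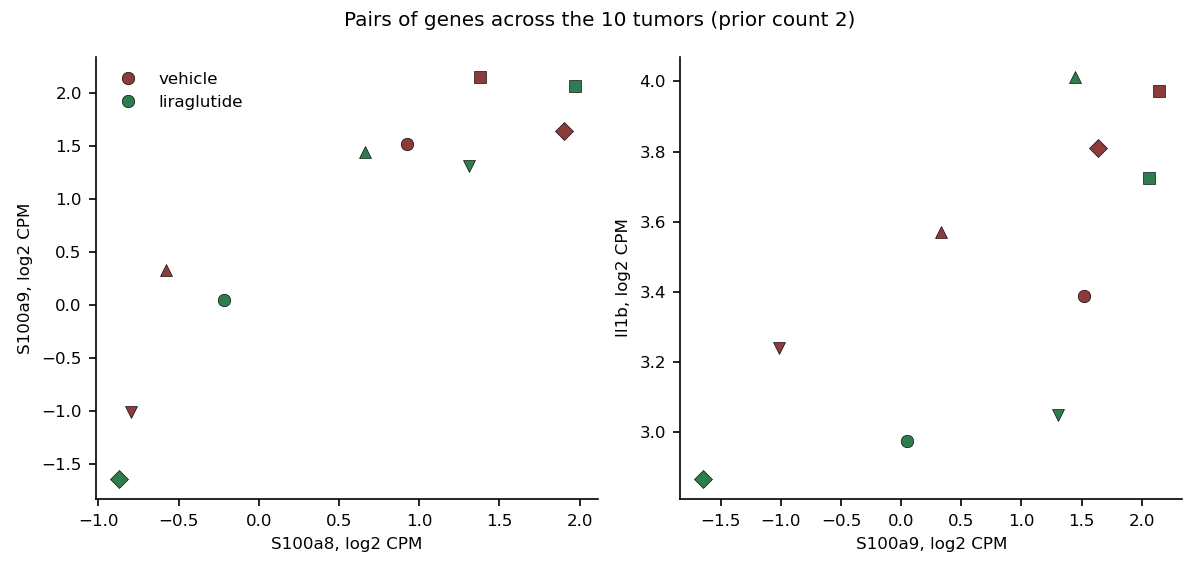
Log2 CPM of S100a9 against S100a8 (left) and of Il1b against S100a9 (right), each point a tumor, colored by treatment and shaped by tumor number. On the left the 4 low tumors (vehicle 4 and 5, liraglutide 1 and 3) lie apart from the other 6 (r = 0.91 over 10 tumors), and both treatments occur in each set.

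Keratinocytes also make S100a8, S100a9 and Lcn2, and the tumors lay in the flank, so keratinocyte markers are given beside them. The summed level of the 17 markers found ran from 42.0 to 129 CPM in vehicle tumors and from 52.2 to 403 CPM in liraglutide tumors. In tumors with low sums Perp and Sprr1a, present in every tumor, made up much of it. Vehicle 3, at 129 CPM in sum, had 48.8 CPM of Perp and 49.1 CPM of Sprr1a, and liraglutide 1 had 40.3 and 11.9 CPM. The vehicle range of the sum thus rests largely on these genes. Liraglutide 2, the highest tumor for S100a8, was also the highest for Krt14, at 93.9 CPM, followed by liraglutide 4 and 5 at 26.2 and 25.5 CPM. In vehicle 1, with S100a9 at 2.69 CPM, the summed level was 42.0 CPM, the lowest of all tumors, although Krt10 was at 6.36 CPM there, the highest of the vehicle tumors. Of the 12 keratinocyte markers tested, 9 had an unadjusted p under 0.05, all higher with liraglutide (median log2 fold change 1.84), beside 3.97% of all genes. In exact permutation tests only Sbsn and Ivl of these 9 had a p under 0.05 (0.040 and 0.032). None of the 12 passed adjustment in edgeR's quasi-likelihood test, where the smallest adjusted p of any gene was 0.482. The higher levels were those of liraglutide 2, 4 and 5, while liraglutide 1 and 3 had summed levels of 65.6 and 52.2 CPM, inside the vehicle range, and 0 counts of Krt5, Krt1 and Krt6a. The part of keratinocyte RNA in the levels of S100a8, S100a9 and Lcn2 was not tested. Other tested genes were ranked by how closely their centred log2 CPM followed the mean standardized level of the 6 over the 10 tumors. In order, the first 10 (r from 0.91 to 0.88) were Spink5, Txlnb, Krt6b, Lama2, Krt6a, 2610012C04Rik, A730081D07Rik, Raver2, Tlcd3a and Cstdc5. With 17464 genes ranked over so few tumors, high values of r come with the choice, and their size was not tested.

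Il1b encodes interleukin-1β, the inflammatory cytokine that neutrophils, monocytes and macrophages release after cleavage by caspase-1. Its level was 10.3, 15.5, 13.9, 11.7 and 9.29 CPM in vehicle tumors 1 to 5 and 7.69, 13.1, 7.13, 15.97 and 8.11 CPM in liraglutide tumors 1 to 5. Liraglutide 1, 3 and 5 lay below every vehicle tumor and liraglutide 4 above every one. With liraglutide the log2 fold change was -0.22 (SE 0.25, 95% CI -0.77 to 0.33), with an adjusted p of 0.773 in edgeR's quasi-likelihood test. Per length, Il1b was the most abundant of the 10 genes, with 4.33 ± 1.25 CPM per kb of exon (SD, n = 10).

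All 20 genes listed for the interleukin-1 pathway were tested, and 2 had an unadjusted p under 0.05, both higher with liraglutide, a share close to the 9.59% of all genes (14 had a positive log2 fold change, median 0.15). Il18, a cytokine of the same family, stood at 3.11 ± 1.30 CPM in the vehicle group and 5.28 ± 0.603 CPM in the liraglutide group (SD, n = 5 each), and its log2 fold change was 0.77 (SE 0.28). For Irak3, an inhibitor of the pathway's kinases, the log2 fold change was 0.62 (SE 0.26). Neither passed in edgeR's quasi-likelihood test (adjusted p = 0.482 for Il18 and 0.512 for Irak3). Il1r2, the decoy receptor that neutrophils carry, had a log2 fold change of -0.62 (SE 0.52). Its level was 4.28, 6.29 and 4.41 CPM in vehicle tumors 1 to 3 and 2.59 and 0.652 CPM in vehicle tumors 4 and 5, and it was 2.85, 3.84, 1.29, 2.93 and 0.968 CPM in liraglutide tumors 1 to 5. The groups overlapped over most of their range.

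Among the receptors, Csf3r, the receptor for granulocyte colony-stimulating factor, was the steadiest of the tested genes. It stood at 3.25, 4.76, 4.72, 3.18 and 4.32 CPM in vehicle tumors 1 to 5 and at 3.37, 3.59, 6.82, 5.01 and 5.58 CPM in liraglutide tumors 1 to 5. Liraglutide 3, 4 and 5 were above every vehicle tumor and the other liraglutide tumors were within the vehicle range. The log2 fold change was 0.27 (SE 0.24, 95% CI -0.24 to 0.79), with an adjusted p of 0.704 in edgeR's quasi-likelihood test. Liraglutide 3 had the highest level of Csf3r and the lowest levels of S100a8, S100a9 and Il1b. The r of Csf3r with S100a9 was -0.27 (permutation p = 0.454, adjusted p = 0.832 over the 15 pairs) and turned to 0.46 without liraglutide 3 and vehicle 5 (permutation p = 0.274), and that with S100a8 went from -0.03 to 0.51. Csf3, which encodes its ligand, was too low to be tested, with at most 8 counts in a tumor.

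Cxcr2, the receptor for the chemokines Cxcl1, Cxcl2 and Cxcl5, had between 2 and 19 counts per tumor. Its level was 1.31, 1.01, 0.945, 0.167 and 0.163 CPM in vehicle tumors 1 to 5 and 0.691, 0.327, 0.455, 0.661 and 0.968 CPM in liraglutide tumors 1 to 5. Vehicle 1 to 3 were high or near the top of the range and vehicle 4 and 5 were at the bottom, while the liraglutide tumors lay within the vehicle range. The means were 0.720 ± 0.525 CPM in the vehicle group and 0.620 ± 0.245 CPM in the liraglutide group (SD, n = 5 each). When the filter was lifted the log2 fold change was -0.21, with an adjusted p of 0.916 in edgeR's quasi-likelihood test. DESeq2 without independent filtering gave Cxcr2 an adjusted p of 0.991. With a tumor left out, 6 edgeR fits kept Cxcr2, and its adjusted p in these quasi-likelihood tests ran from 0.670 to 0.981. Trem1, which amplifies inflammatory signals in myeloid cells through the adaptor Tyrobp, had 0 to 7 counts per tumor, with a level of 0 to 0.415 CPM in vehicle tumors and 0.0864 to 0.571 CPM in liraglutide tumors. No difference was detectable at this depth.

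Ligands and growth factors for these receptors were read from a list of 19 genes, of which 12 were tested. At an unadjusted p under 0.05, 1 was higher and 2 were lower with liraglutide (median log2 fold change of the 12 -0.06). The shares of all genes were 3.97% higher and 5.62% lower. Cxcl1, a neutrophil chemoattractant, stood at 7.53, 11.4, 6.51, 4.35 and 3.34 CPM in vehicle tumors 1 to 5 and at 3.20, 3.43, 2.50, 3.68 and 3.50 CPM in liraglutide tumors 1 to 5. The liraglutide tumors were close together and reached only the lowest vehicle tumor (log2 fold change -1.02, SE 0.31, adjusted p = 0.482 in edgeR's quasi-likelihood test). Csf2, which encodes granulocyte-macrophage colony-stimulating factor, had 2.45 ± 1.19 CPM in the vehicle group and 1.06 ± 0.310 CPM in the liraglutide group (SD, n = 5 each), a log2 fold change of -1.18 (SE 0.37, adjusted p = 0.482 in the same edgeR test). Csf1, the growth factor of macrophages, had a log2 fold change of 0.39 (SE 0.16, adjusted p = 0.506 in the same edgeR test). Cxcl2 and Cxcl5 had log2 fold changes of -0.86 (SE 0.51) and -0.53 (SE 0.63), and Il17a had 0 counts in all tumors. None of the tested genes passed adjustment. Il6, too low to be tested, had 4 to 39 counts per tumor. Its liraglutide tumors (0.346 to 0.670 CPM) all lay below its vehicle tumors (0.753 to 3.95 CPM). Of the tested genes 1.49% had groups that did not overlap.

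Of the 20 listed receptors, adaptors and signaling partners of the 10 genes, 19 were tested. With an unadjusted p under 0.05 there was 1, beside 9.59% of all genes. This was Bcl10, an adaptor of NF-κB signaling, at 41.2 ± 1.95 CPM in the vehicle group and 35.3 ± 2.91 CPM in the liraglutide group (SD, n = 5 each). Its groups did not overlap, as held for 1.49% of all tested genes. Its log2 fold change was -0.22 (SE 0.09), with an adjusted p of 0.504 in edgeR's quasi-likelihood test.

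Mmp8 encodes neutrophil collagenase, which is stored in granules and cleaves fibrillar collagen. Its level was 0.484, 0.304, 0.945, 0.669 and 0.977 CPM in vehicle tumors 1 to 5 and 1.73, 1.31, 0.531, 1.13 and 1.49 CPM in liraglutide tumors 1 to 5. All liraglutide tumors but liraglutide 3 lay above every vehicle tumor. The log2 fold change was 0.86 (SE 0.38, 95% CI 0.02 to 1.70), the largest of the 6 tested genes, with an unadjusted p of 0.0453 and an adjusted p of 0.515 in edgeR's quasi-likelihood test. The two-sided exact permutation test gave p = 0.0714. These values rest on 3 to 20 counts per tumor, and relative to Ptprc (CD45, a gene of all leukocytes) the difference was 0.49 on the log2 scale (exact permutation test, p = 0.325).

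Lcn2 encodes lipocalin-2, a granule protein that binds bacterial iron carriers and is made by epithelial cells too. It stood at 0.276, 0.507, 1.36, 0.753 and 2.12 CPM in vehicle tumors 1 to 5 and at 0.777, 1.14, 1.14, 1.04 and 2.01 CPM in liraglutide tumors 1 to 5. All liraglutide tumors lay within the vehicle range (log2 fold change 0.30, SE 0.49, 95% CI -0.77 to 1.36, adjusted p = 0.848 in edgeR's quasi-likelihood test). The log2 fold change was 0.04 without vehicle 1 and 0.80 without vehicle 5. Retnlg, a resistin-like protein of marrow neutrophils, had 0 to 6 counts per tumor. Ngp, a protein of the granules of precursors, had 0 to 3 counts. Both had summed counts of at most 9 in a group, too few to show a difference.

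**Figure D3:**
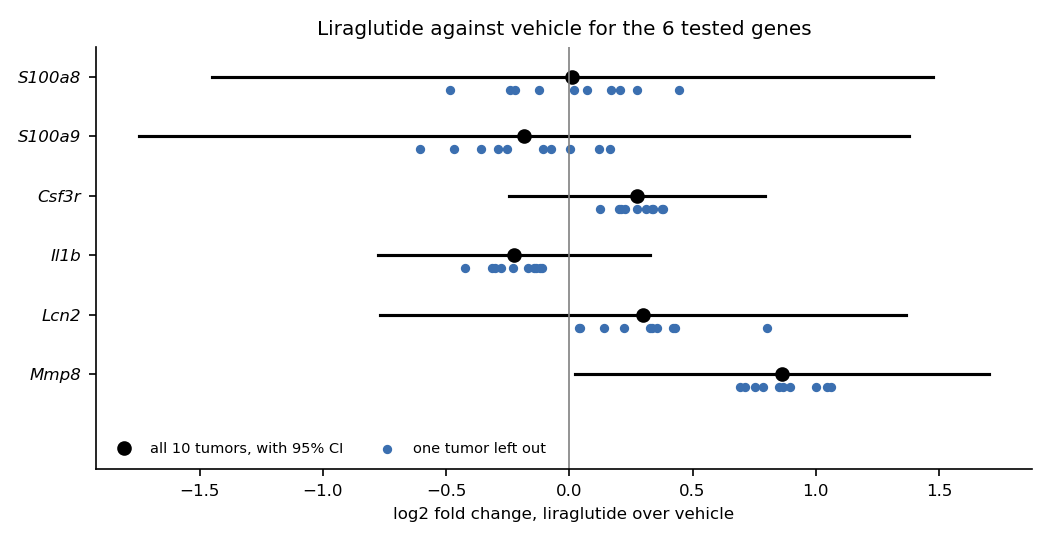
Log2 fold change of liraglutide over vehicle (horizontal axis) for the 6 tested genes. Black points and lines give the value from all 10 tumors with its 95% confidence interval, and blue points give the value with each tumor left out in turn. All intervals but that of Mmp8 (0.02 to 1.70) cross 0, and the blue points of S100a8 and S100a9 fall on both sides of 0.

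Other granule genes were read from a list of 21, of which 12 were tested. At an unadjusted p under 0.05, 1 was higher and 1 lower (median log2 fold change 0.16), beside 3.97% and 5.62% of all genes. Ncf4, a cytosolic subunit of the NADPH oxidase of phagocytes, stood at 1.92 ± 0.811 CPM in the vehicle group and 3.95 ± 0.673 CPM in the liraglutide group (SD, n = 5 each) (log2 fold change 1.04, SE 0.28, adjusted p = 0.482 in edgeR's quasi-likelihood test). Anxa1, which limits inflammation and is made by many cell types, had a log2 fold change of -0.51 (SE 0.22, adjusted p = 0.515 in the same edgeR test). Lyz2, a lysozyme of neutrophils and macrophages alike, was at 168 ± 43.8 and 184 ± 47.8 CPM (SD, n = 5 each). Of 27 further surface and lineage genes 14 were tested, and 1 had an unadjusted p under 0.05, beside 9.59% of all genes. This was Mxd1, a repressor of Myc targets, at 88.2 ± 21.6 CPM with vehicle and 62.7 ± 6.11 CPM with liraglutide (SD, n = 5 each; log2 fold change -0.49, SE 0.16, adjusted p = 0.482 in edgeR's quasi-likelihood test).

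Genes by which myeloid cells can restrain T cells were read from a list of 24, of which 19 were tested. The values are those of whole fragments, and which cells held this RNA was not tested. Nt5e and Vegfa of this list averaged 634 and 462 CPM over the 10 tumors, beside 55.2 CPM for Ptprc. No value here is read as one of myeloid cells alone. With liraglutide 1 was higher and 1 lower at an unadjusted p under 0.05 (median log2 fold change 0.14), and none passed adjustment. The shares of all genes at that p were 3.97% and 5.62%. Ptgs2, the inducible cyclooxygenase, stood at 70.1, 120, 107, 76.3 and 70.8 CPM in vehicle tumors 1 to 5 and at 72.4, 54.1, 38.7, 65.3 and 39.7 CPM in liraglutide tumors 1 to 5. Only liraglutide 1 reached the vehicle range (log2 fold change -0.72, SE 0.22, adjusted p = 0.482 in edgeR's quasi-likelihood test). Il4ra, a subunit of the receptors for interleukin-4 and interleukin-13, had a log2 fold change of 0.49 (SE 0.22, adjusted p = 0.515 in the same edgeR test). Arg1, which depletes arginine, was at 23.0 ± 5.996 CPM with vehicle and 23.6 ± 11.3 CPM with liraglutide (SD, n = 5 each), a log2 fold change of 0.04 (SE 0.31). Ido1, which depletes tryptophan, ranged from 9.74 to 230 CPM in vehicle tumors and from 43.0 to 147 CPM in liraglutide tumors (log2 fold change 0.18, SE 0.66). Neither Arg1 nor Ido1 passed the test.

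Per length of exon, which allows genes to be compared, S100a8 (1.75 ± 1.29 CPM per kb) and S100a9 (1.66 ± 1.14 CPM per kb) followed Il1b, and their difference was well within the spread (SD, n = 10). Csf3r (0.874 ± 0.230 CPM per kb) came next, then Lcn2 (0.424 ± 0.227 CPM per kb) and Mmp8 (0.394 ± 0.192 CPM per kb), which did not differ beyond their spread. Cxcr2 (0.220 ± 0.128 CPM per kb), Retnlg (0.117 ± 0.132 CPM per kb), Trem1 (0.0798 ± 0.0562 CPM per kb) and Ngp (0.0671 ± 0.0680 CPM per kb) were the lowest, and the last 3 overlapped.

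**Figure D4:**
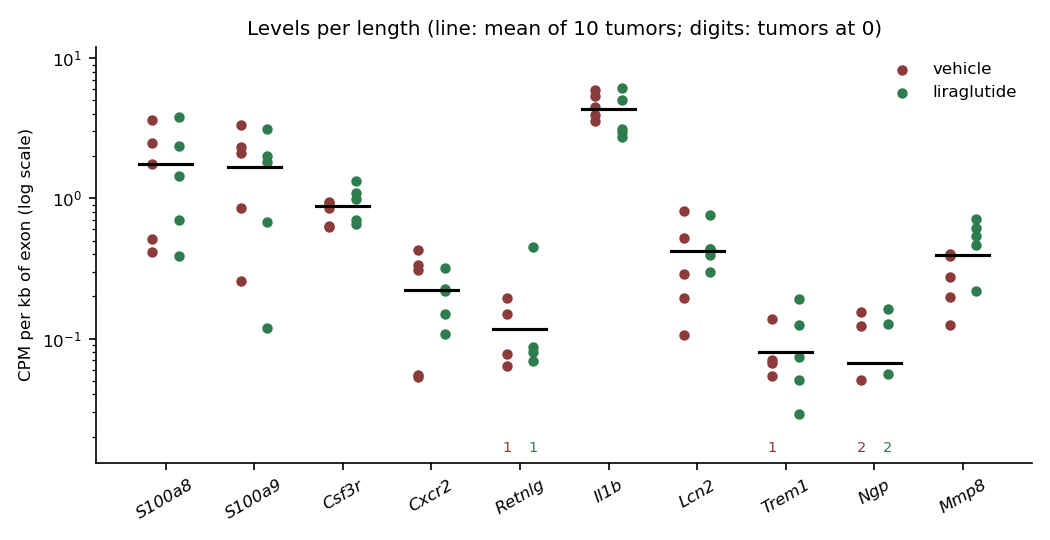
Level of each gene in CPM per kb of exon (log scale), each point a tumor, with a line at the mean of 10 tumors and digits near the base giving the number of tumors at 0. Il1b is highest (mean 4.33) and Ngp lowest (mean 0.0671), and the tumors of S100a9 span the widest range of the genes with counts in every tumor.

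The level of Ptprc differed between tumors, and within the vehicle group it ran opposite to that of some of these genes. Ptprc stood at 35.6, 31.7, 41.0, 77.0 and 70.5 CPM in vehicle tumors 1 to 5 and at 37.2, 42.4, 70.5, 74.8 and 71.0 CPM in liraglutide tumors 1 to 5. The tumors fell into 5 low and 5 high ones, and no correlation over the pooled tumors is given. Vehicle 1 to 3, low for Ptprc, were the higher vehicle tumors for S100a8, S100a9 and Cxcr2, and in the liraglutide group no such order was present, since liraglutide 1 was low for both Ptprc and S100a8. Itgam, a surface integrin of myeloid cells, was at 4.32 ± 1.27 CPM with vehicle and 5.81 ± 1.59 CPM with liraglutide (SD, n = 5 each; log2 fold change 0.43, SE 0.26). When each gene was taken relative to Ptprc, 0 of the 6 tested genes had an exact permutation p under 0.05 (1.74% of all genes did), and the differences on the log2 scale ran from -0.53 for S100a9 to 0.49 for Mmp8.

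Macrophages and monocytes also transcribe Il1b, Csf3r and Trem1. The summed level of 12 macrophage markers ran from 608 to 1188 CPM in vehicle tumors and from 693 to 1008 CPM in liraglutide tumors. That of 10 monocyte markers ran from 359 to 634 and from 330.5 to 540.2 CPM. Much of the first sum was Mrc1, at 218 to 761 CPM with vehicle and 190 to 457 CPM with liraglutide. Much of the second was Plac8, at 170 to 383 and 93.6 to 246 CPM. The sums therefore say little about the other markers. Of 9 monocyte markers tested, 3 (Ace, Spn and Cx3cr1) had an unadjusted p under 0.05, all higher with liraglutide. Their exact permutation p was 0.016, 0.024 and 0.087. Of the 9, 7 had a positive log2 fold change (median 0.28), with 0.01 for Ccr2, and 2 a negative one, Plac8 (-0.45) and F13a1 (-0.22). Which cells held the RNA of Ace, at a mean of 65.7 CPM, was not tested. Of 12 macrophage markers 1 (Cd163) was lower at an unadjusted p under 0.05, with an exact permutation p of 0.254. In 10 of the 12 the log2 fold change was positive (median 0.24). Among the genes of red blood cells, 4 of 5 were lower at an unadjusted p under 0.05 (median log2 fold change -2.02). Their summed level was 26.9 to 74.1 CPM in vehicle tumors and 15.6 to 33.5 CPM in liraglutide tumors. With DESeq2 Ace was among the genes called (adjusted p = 0.0216), and in edgeR's quasi-likelihood test, where its adjusted p was 0.482, none of these genes passed. Among the other cell type lists, 1 of 7 markers of mast cells, basophils and eosinophils (Mcpt4) and 1 of 9 tumor epithelial markers (Nkx2-1) were higher at an unadjusted p under 0.05. None of the 9 pan-leukocyte genes, 8 lymphoid, 7 fibroblast, 6 dendritic cell, 5 muscle, 3 fat cell and 2 platelet genes tested reached it. The shares of all genes at that p were 3.97% higher and 5.62% lower. The part of these cells in the values above was not tested.

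**Figure D5:**
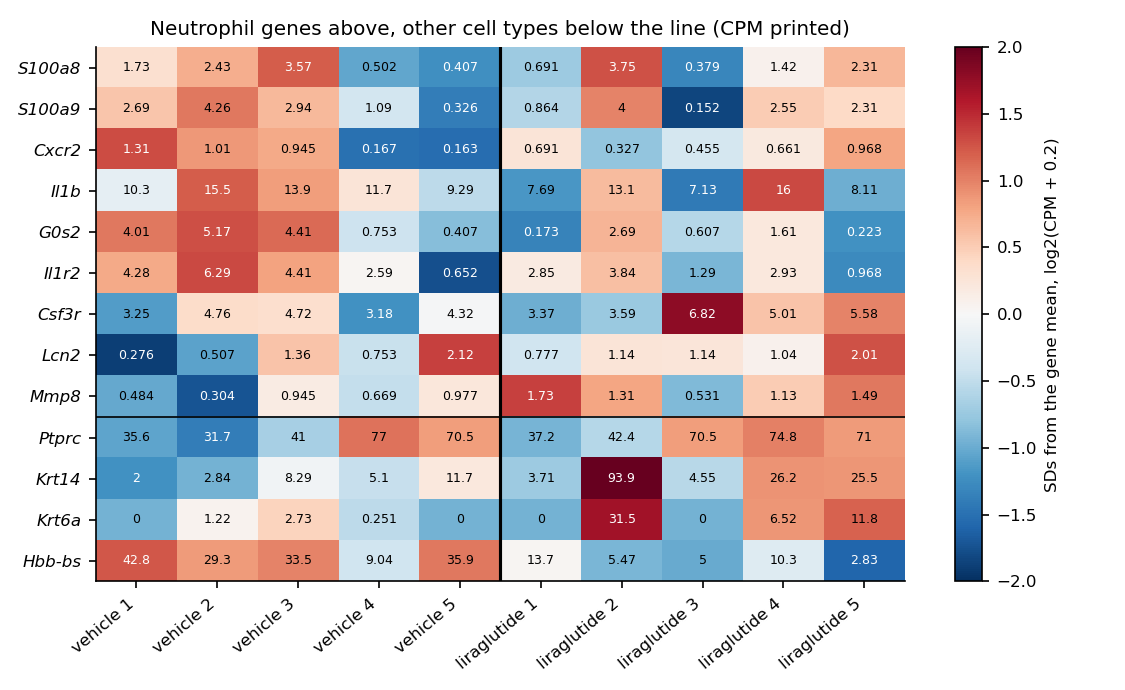
CPM (printed) in each tumor of S100a8, S100a9, Cxcr2, Il1b, Csf3r, Lcn2 and Mmp8, of the neutrophil-list genes G0s2 and Il1r2, chosen after their values were seen, and, below the line, of Ptprc, 2 keratinocyte genes and a hemoglobin gene. Color gives SDs of log2(CPM + 0.2) from the gene's mean, and vehicle 1 to 3 are high for S100a8, S100a9, Cxcr2, G0s2 and Il1r2 and low for Ptprc. Other genes of the list that holds G0s2 and Il1r2 did not all follow this order and are not shown. Fcgr4 was at 1.73, 3.14, 4.305, 8.2 and 9.94 CPM in vehicle tumors 1 to 5, and Fpr1 was highest in vehicle 4, at 5.10 CPM.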

How the data were processed

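The authors deposited raw counts per gene, made from read pairs of ribosome-depleted, stranded libraries with Bowtie 1.0.1, TopHat 2.0.13 and featureCounts, after samples were left out at quality assessment. The strand setting, the treatment of multimapping reads and the annotation release are not given in the sources used here. The methods name build GRCm39 and the submitters' processing notes mm10, so only promoter windows (GRCm38.p6) carry positions. Exon lengths came from GENCODE M39 and may differ from the authors' models.

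Genes were filtered with filterByExpr, scaled by TMM and tested with edgeR 4.0.16 (quasi-likelihood test, treatment as factor, Benjamini-Hochberg adjustment over 17464 genes) in R 4.3.3. Calls needed an adjusted p below 0.05 with a log2 fold change beyond 0.58 in size. Single genes were also compared by two-sided exact permutation tests of log2 CPM (prior count 2), where the smallest p is 0.00794, and correlations by 100000 permutations with a Benjamini-Hochberg adjustment over 15 pairs. Alternatives were DESeq2 1.42.0, limma-voom (limma 3.58.1), other scalings and filters, a robust fit, the tumor number as a block, other prior counts and each tumor left out. The correlation over all 10 genes and the one above the gap were chosen after seeing the data. Scripts were tested on simulated data.

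The 10 genes and all gene lists were chosen with earlier results of these data known. The rule for naming took from each list the genes with an unadjusted p under 0.05, up to 4 by smallest p, filled up to 3 with those of highest CPM, and Arg1, Ido1, Ptprc and Itgam. The text names only part of these and gives most lists of other cell types by counts. Other marker genes, ligands and Il1r2 were named after their values were seen. Nothing in the labels says how the tumors of a group relate beyond being separate samples, so p-values measure the spread between these tumors. Count floors cover counting error only.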

Additional observations from a re-analysis of the deposited data

Results flagged for a closer look

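Retnlg in liraglutide 2 lay apart from the other liraglutide tumors, at 0.490 CPM with the next tumor at 0.0945 CPM. The gap took 0.807 of the group's range, above Dixon's 95% critical value for 5 tumors. The value rests on 6 counts. Among groups of this size with normally distributed values, chance sets about 1 in 20 apart in this way. Counts of 0 to 6 per tumor are not of that kind, so the rate need not hold here.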

How the results depend on the processing

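Of the 10 genes, 0 passed in any fit that gave them an adjusted p. Those given one were the 6 tested genes in most fits, all 10 in edgeR with every gene of at least 1 count and in DESeq2 without independent filtering, 2 (Csf3r and Il1b) with at least 10 counts in every tumor, and 6 or 7 with a tumor left out. DESeq2 with independent filtering gave none of the 10 an adjusted p and is no test of them. The number of all genes called was 17 with DESeq2, 9 with DESeq2 without independent filtering and 0 under the others. The log2 fold change of S100a8, close to 0, was -0.0070 with DESeq2 under either filtering, and its exact difference was -0.0011 with a prior count of 5. Without the 2 tumors farthest from the median, 0 pairs of genes passed adjustment, against 1 with all tumors. When single tumors were removed, the log2 fold change ran from -0.49 to 0.45 for S100a8, from -0.61 to 0.17 for S100a9, from 0.13 to 0.38 for Csf3r, from -0.42 to -0.11 for Il1b, from 0.04 to 0.80 for Lcn2 and from 0.69 to 1.06 for Mmp8. The exact differences ran from -0.34 to 0.37 for S100a8 and from -0.77 to 0.29 for S100a9. Relative to Ptprc they ran from -0.72 to 0.20 for S100a8, from -1.15 to 0.12 for S100a9, from -0.26 to 0.20 for Csf3r and from -0.017 to 0.39 for Lcn2. The number of genes whose groups did not overlap was 0 to 1, the 1 being Mmp8 without liraglutide 3.

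The tumor numbers were not taken to pair the samples, as nothing in the labels says that they do. Same-numbered tumors correlated at 0.354, 0.565, -0.0753, 0.0681 and 0.389. Their mean was 0.260, beside -0.068 for other numbers, and 3 of 10 tumors correlated best with their own number. These values do not settle whether the numbers pair the tumors. With the number as a replicate block, 0 genes passed adjustment and the log2 fold change of Mmp8 was 0.86. The smallest adjusted p in edgeR's quasi-likelihood test was 0.228 with the block and 0.482 without it. For the 4 genes below the filter, and for S100a8, S100a9, Lcn2 and Mmp8 at their lowest counts, depth limits what can be seen.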
